A study of Mus musculus with 30 samples.

Results

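The potassium channel genes of the mouse spinal cord were taken from the deposited table as every gene whose symbol begins with Kcn and a further letter, apart from opposite-strand and Riken transcripts, and 74 of the 16995 genes in the table met this rule. Of these, 32 encode pore subunits of voltage-gated channels, 9 encode their auxiliary subunits, 12 encode inward-rectifier subunits and 9 encode two-pore subunits. A further 8 encode pore subunits of the Kcnm, Kcnn, Kcnt and Kcnu families. They are called calcium- or sodium-activated here by their symbols, which need not describe the gating of each. Another 3 encode auxiliary subunits of the large-conductance calcium-activated channel. The remaining gene, Kcnq1ot1, is a noncoding antisense RNA that shares the letters and encodes no channel, so that 73 genes encode subunits. All animals were adult female C57BL/6 mice. The stroke groups had received a photothrombotic lesion of the right sensorimotor cortex and were taken 4, 7, 14, 28 or 42 days post-injury (dpi), and the sham group, labelled Ctrl, had a sham operation. RNA was taken from hand-trimmed intermediate laminae at spinal level C5/C6, on the side that the stroke had denervated, with 1 animal per sample. Values of 29 animals were used, 4 at 4 dpi and 5 in each other group.

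Potassium channels let potassium leave the cell and thereby set the resting potential, end the action potential and limit repetitive firing. Voltage-gated channels open on depolarization, inward rectifiers pass current best near or below the resting potential, two-pore channels carry background leak, and calcium-activated channels couple calcium entry to repolarization. In the spinal cord, Kcna1 and Kcna2 subunits are known from the axon beside the node of Ranvier, Kcnq3 from the axon initial segment, and Kcnj10 from astrocytes and oligodendrocytes, which clear potassium from around active neurons.

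The classes differ in how often the selectivity filter occurs in the protein. A search of the longest intact coding sequence of each gene (GENCODE M21, GRCm38/mm10) looked for 5 residues in a row, namely threonine or serine, then valine, isoleucine, threonine or leucine, then glycine, then tyrosine, phenylalanine or leucine, then glycine. All 32 voltage-gated, all 12 inward-rectifier and all 8 calcium- or sodium-activated pore genes held it 1 time, all 9 two-pore genes held it 2 times, and the 9 and 3 auxiliary genes held it 0 times. Leucine was added to the second position after a first search of these same genes, so that the counts are a description partly set by the pattern. The stretches below are from genes on which the results turn, read in the sense direction of each transcript, with the 5 filter codons in capitals and 3 flanking codons on each side. Each two-pore gene is shown with both filters.
Kcnj10: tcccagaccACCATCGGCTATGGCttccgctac
Kcnj6: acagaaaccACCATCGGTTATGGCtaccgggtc
Kcnma1: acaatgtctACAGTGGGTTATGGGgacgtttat
Kcnk9, first filter: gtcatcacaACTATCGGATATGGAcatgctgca
Kcnk9, second filter: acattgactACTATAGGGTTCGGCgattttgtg
Kcnk1, first filter: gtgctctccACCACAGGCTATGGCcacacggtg
Kcnk1, second filter: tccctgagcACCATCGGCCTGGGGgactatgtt

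The values are the authors' normalized CPM, read counts scaled to library size, rounded to 0.1. They are not counts, their depth is unknown, and their precision rests on the spread between animals. The median over all genes lay between 10.2 and 11.2 in every animal. Residual ribosomal RNA differed more, and its main gene Rn18s-rs5 ranged from 30321 to 52929 among sham animals, from 44755 to 779160 at 28 dpi and up to 817780 at 14 dpi. Differences between groups were tested on log2(value + 0.5) with limma and Benjamini-Hochberg adjustment over all genes, and a gene was called at an adjusted p under 0.05. In bulk tissue, fewer cells of a type and less RNA per cell cannot be told apart.

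In sham-operated cord the axonal voltage-gated subunits and the glial inward rectifier were the most abundant per length. Kcnab2, the beta subunit that binds Kcna channels, had a level of 74.5 normalized CPM per kb of exon, with animals between 70.0 and 77.4. It was followed by Kcna1 (67.9, range 58.9 to 78.3), Kcna2 (57.8, range 51.5 to 62.6) and Kcnj10 (49.8, range 41.6 to 55.2). The range of each of these 4 genes overlapped that of its neighbour in the order. Kcnk1, a two-pore leak subunit, stood at 32.4 per kb (range 29.9 to 37.0).

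Below these, the classes spread over a wide range of levels per length. Kcnj3, a subunit of G protein-gated channels, stood at 13.0 per kb, Kcnt1, a sodium-activated subunit, at 8.85, and Kcnk3, an acid-sensitive leak subunit, at 4.25. The calcium-activated subunits were lower, with Kcnn2 at 3.45 per kb and the auxiliary subunits Kcnmb2 and Kcnmb4 at 1.04 and 0.957. Kcnn4, a calcium-activated subunit of blood cells and microglia, was the lowest at 0.102 per kb, with a mean of 0.52 ± 0.335 normalized CPM (SD, n = 5) close to the rounding step. The first 10 genes of this order in the sham group were also the first 10 at 4, 7, 14 and 42 dpi, and 9 of them were at 28 dpi, where Kcnc1 took the place of Kcnab1.

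**Figure D1:**
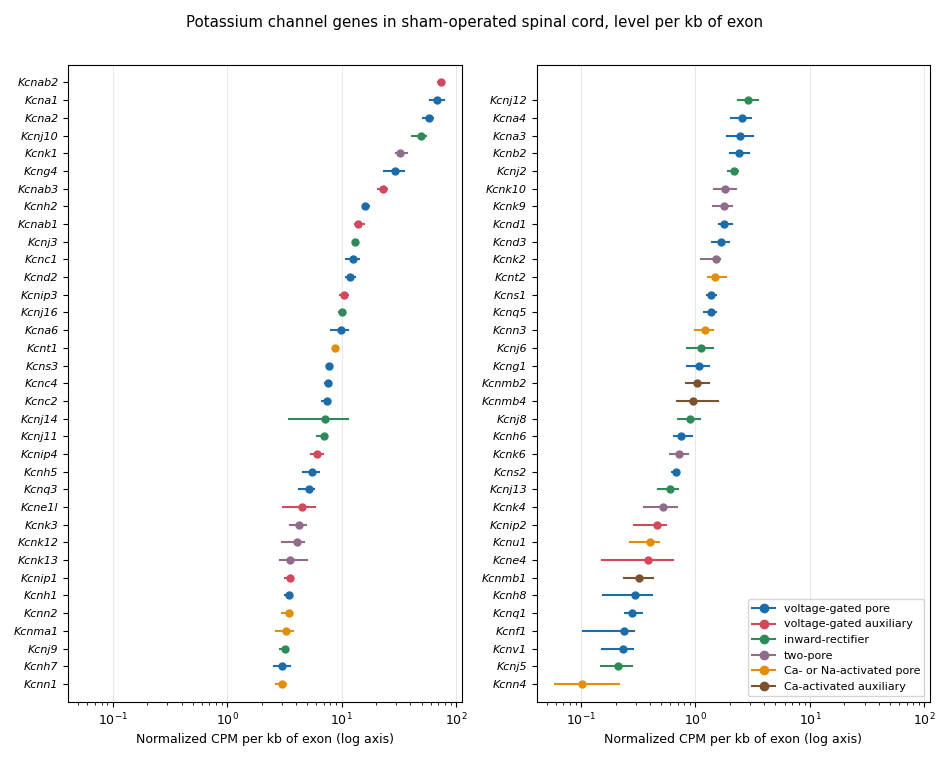
Level of 69 of the 73 subunit genes in sham animals in normalized CPM per kb of exon (log axis), as the mean (point) and the range over 5 animals (line), coloured by class and ordered by level over both panels. Kcnab2, Kcna1, Kcna2 and Kcnj10 lead, and Kcnn4 is lowest at 0.102 per kb.

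Spread between animals of a group was small for most of these genes. The within-group SD had a median of 0.211 on the log2 scale over the 74 genes, against 0.191 over all genes, with Kcnab2 lowest at 0.0761. Kcnj14, an inward rectifier known from motor nuclei, had the highest SD, 0.716 (it is singled out after its values were seen). The level of Kcnj14 ranged from 9.4 to 30.9 normalized CPM in sham animals and from 5.7 to 46.0 at 4 dpi. The 4 dpi animal with 5.7 also had the lowest summed level of 4 motor neuron markers (Chat, Slc5a7, Mnx1 and Isl1), 25.8. The 14 dpi animal A5-4 and the 4 dpi animal A10-1, with the highest Kcnj14 levels of all 29 animals (46.4 and 46.0), had the highest marker sums, 287.5 and 245.3. The part of motor neuron content in the level of Kcnj14 was not tested.

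Against sham, potassium channel genes were called at 28 dpi and at no other time. No member was called at 4 dpi (0.106% of all genes were called), 7 dpi (0.0294%), 14 dpi (0.00588%) or 42 dpi (0.0235%) with limma, with 2, 4, 11 and 15 of 74 members at an unadjusted p under 0.05. These were 2.7%, 5.41%, 14.9% and 20.3% of the members, against 5.14%, 5.84%, 11.6% and 14.8% of all genes. At 28 dpi, 19 of 74 members (25.7%) were called, against 24.9% of all genes, so that the share was close to the background and is not a result about these genes. By direction, 14 members were higher (18.9%, against 11.9% of all genes) and 5 were lower (6.76%, against 13.0%). Over all 6 groups, 23 members (31.1%) passed the moderated F test, against 31.6% of all genes. The median log2 difference of the members from sham was 0.03, -0.01, -0.07, 0.06 and -0.02 in the order of the 5 time points, and that of all genes lay between -0.01 and 0.01.

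Leaving out single animals moved the count at 28 dpi. It was 10 without the sham animal A12-1 (7 higher, 3 lower) and 10 without the 28 dpi animal A3-3 (8 higher, 2 lower), the animals highest in Rn18s-rs5 of their groups, and without the 28 dpi animal A4-3 the lower members numbered 3. The share of all genes called fell likewise, to 12.9% without A12-1 and 13.2% without A3-3, against 13.5% of the members in both. With ribosomal RNA as a covariate limma called 0 of all genes and 0 members, with 17 members at an unadjusted p under 0.05. The differences themselves kept their direction for the genes named by size, for example 0.96 for Kcnmb1, 0.71 for Kcnq1 and 0.57 for Kcnq1ot1, against 0.79, 0.67 and 0.64 without the covariate. The 28 dpi animals came from label units A3 and A4 and the sham animals from A11 and A12, so that unit and time point cannot be told apart.

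**Figure D2:**
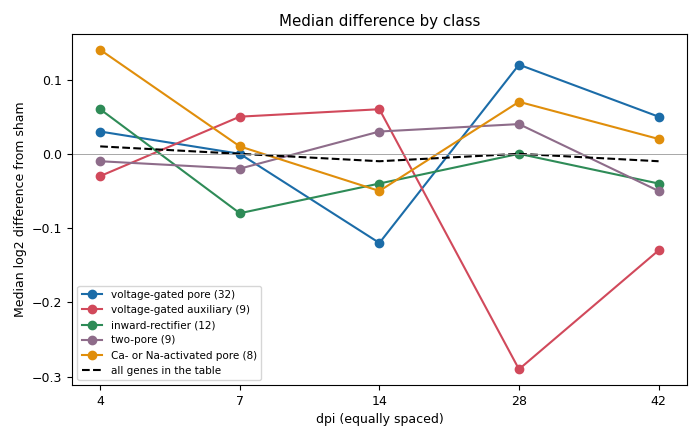
Median log2 difference from sham (log2 of value + 0.5) of 5 classes of subunits at the 5 times after stroke (equally spaced), with the number of genes in brackets and the median of all genes as a dashed line. The 3 genes of the calcium-activated auxiliary class are not drawn. Voltage-gated auxiliary subunits were at -0.29 and voltage-gated pore subunits at 0.12 at 28 dpi.

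At 28 dpi the class medians of voltage-gated pore and auxiliary genes had different signs, a difference that was not tested. Of the 32 voltage-gated pore genes, 8 were higher and 1 was lower, and 21 had a difference above 0, with a median log2 difference of 0.12. Of the 9 auxiliary genes, 0 were higher and 3 were lower, and the difference was below 0 for all 9, with a median of -0.29 (all genes, -0.00). The inward rectifiers had 2 higher and 0 lower of 12, with a median of 0.00. The two-pore genes had 1 higher and 1 lower of 9 (median 0.04), and the calcium- or sodium-activated pore genes had 1 higher and 0 lower of 8 (median 0.07). In the order of these 5 classes, 28.1%, 33.3%, 16.7%, 22.2% and 12.5% of the genes were called in either direction, against 24.9% of all genes (11.9% higher and 13.0% lower). With 8 to 32 genes in a class, these shares are not a result about the classes. The median exon length was 5 kb in the voltage-gated pore genes and 3.55 kb in the auxiliary genes (all genes, 4.14 kb). The part of exon length in their different medians was not tested. Under a rescaling of every animal to the same sum without ribosomal RNA genes, the median of all genes shifted to -0.44 at 28 dpi, and 0 members were called higher and 36 lower (48.6%, against 52% of all genes called). Relative to that median, the pore genes kept a median of 0.10 and the auxiliary genes one of -0.26, with 0 of 9 above it.

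**Figure D3:**
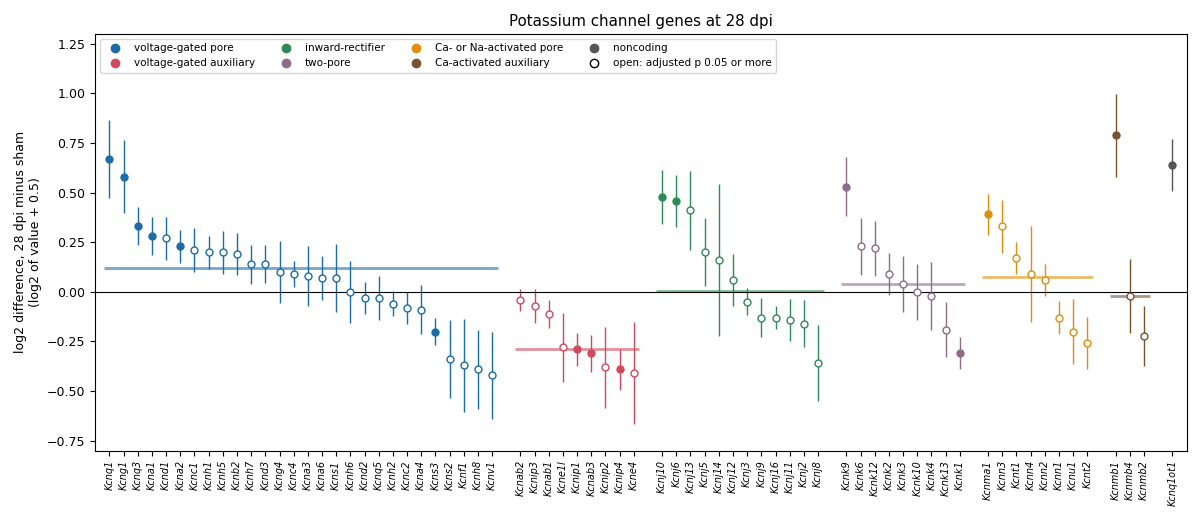
Log2 difference between 28 dpi and sham (log2 of value + 0.5, bars show the standard error) of 70 of the 74 genes, grouped by class; filled points had a limma adjusted p under 0.05 and horizontal lines mark medians over all genes of a class. The filled points of voltage-gated auxiliary subunits (Kcnip1, Kcnab3 and Kcnip4) all lie below 0, while 5 of 6 filled voltage-gated pore points lie above it.

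Among the voltage-gated pore genes, subunits of the axon and of fast-spiking neurons are described first. Kcnc1, a rapidly gating subunit of fast-spiking neurons, was at 118 ± 11.7 in sham and 136 ± 17.6 at 28 dpi (SD, n = 5 each) and was not called (log2 difference 0.21, limma with Benjamini-Hochberg adjustment, adjusted p = 0.165).

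Kcnq3, a subunit of the slow current that opens below the firing threshold, had values of 81.3, 84.1, 62.2, 78.9 and 76.6 in the sham animals and 83.9, 110.0, 90.9, 97.6 and 100.6 at 28 dpi. Of its 5 values at 28 dpi, 4 exceeded the highest sham value. Kcnq3 rose from 76.6 ± 8.53 to 96.6 ± 9.88 (SD, n = 5 each), a log2 difference of 0.33 (standard error 0.0955, limma adjusted p = 0.0133), a call lost under 3 of 9 alternatives and without each of the animals A12-1 and A3-3. Kcnq1, a cardiac and epithelial relative, had low values of 1.3, 1.0, 1.0, 1.0 and 1.4 in sham animals and 1.1, 2.9, 2.4, 1.6 and 3.0 at 28 dpi. It was called higher (log2 difference 0.67, limma adjusted p = 0.0160), with 1 animal of the 28 dpi group inside the sham range. Kcnq1 overlaps exons of Kcnq1ot1 on the other strand. The strand setting of the quantification is not given in the sources used here, so that their reads may not be separated, and the Kcnq1 call was lost under 5 of 9 alternatives (limma adjusted p between 0.0102 and 0.270).

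Kcna1, Kcna2 and Kcng1 also rose. Kcna2, a subunit beside the node of Ranvier, rose from 688 ± 48.2 to 807 ± 94.0 (log2 difference 0.23, limma adjusted p = 0.0475), and Kcna1 from 325 ± 38.4 to 397 ± 64.8 (log2 difference 0.28, limma adjusted p = 0.0319). Of the 5 animals at 28 dpi, 3 were above the sham range for each of them. The call of Kcna2 was lost under 6 of 9 alternatives and in 19 of 29 fits without 1 animal, and that of Kcna1 under 4 of 9 and in 5 of 29. Kcng1, a silent subunit that forms channels only together with other voltage-gated subunits, had values of 5.0, 5.2, 4.4, 5.9 and 3.8 in sham animals and 5.4, 9.3, 7.7, 9.3 and 6.2 at 28 dpi. With 4 of 5 animals above the sham range, Kcng1 had a log2 difference of 0.58 (standard error 0.183, limma adjusted p = 0.0229), a call lost under 3 of 9 alternatives and without each of the animals A12-1, A12-3, A3-3 and A4-3.

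Kcns3, also a silent subunit, went in the other direction. Its values were 26.3, 24.2, 25.4, 23.4 and 24.5 in sham animals and 23.0, 20.8, 23.1, 20.2 and 20.7 at 28 dpi. Every 28 dpi animal was below every sham animal, by a small margin, and Kcns3 fell by 0.20 on the log2 scale (standard error 0.0678, limma adjusted p = 0.0340). This call was lost under 5 of 9 alternatives and in 6 of 29 fits without 1 animal. Other well known subunits of the class were not called: Kcnd2, which carries the transient A-current, was at 61.2 ± 5.73 in sham and 59.9 ± 6.25 at 28 dpi, and Kcnh2, an ether-a-go-go-related subunit, at 77.8 ± 4.17 and 75.0 ± 8.21. Kcna3, known from immune cells and some neurons, was at 4.68 ± 1.01 and 4.94 ± 0.929.

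The auxiliary genes called at 28 dpi were KChIP and beta subunits. Kcnip1, a calcium sensor that binds Kcnd channels (chromosome 11, 33629339 to 33993152, mm10), had values of 22.1, 23.4, 23.1, 20.0 and 20.8 in sham animals and 18.1, 16.1, 18.4, 19.0 and 17.6 at 28 dpi. The groups did not overlap, and Kcnip1 fell by 0.29 on the log2 scale (standard error 0.0842, limma adjusted p = 0.0154), a call lost under 2 of 9 alternatives and without the 28 dpi animal A3-3. Its relative Kcnip4 had values of 24.9, 22.6, 19.7, 20.8 and 22.6 in sham animals and 21.7, 17.3, 18.1, 13.1 and 14.8 at 28 dpi. The 28 dpi animal A3-1 lay inside the sham range and the other 4 below it, and Kcnip4 fell by 0.39 (standard error 0.104, limma adjusted p = 0.00980).

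Kcnab3, a beta subunit of Kcna channels, had values of 60.6, 67.1, 71.5, 59.6 and 72.1 in sham animals and 61.7, 44.9, 65.4, 45.4 and 50.8 at 28 dpi, so that 3 of 5 animals were below the sham range. Kcnab3 fell by 0.31 (standard error 0.0927, limma adjusted p = 0.0159), a call lost under 3 of 9 alternatives and in 3 of 29 fits without 1 animal. The more abundant beta subunits were not called: Kcnab2 was at 416 ± 17.1 in sham and 404 ± 23.0 at 28 dpi, and Kcnab1 at 121 ± 8.92 and 111 ± 5.15. Kcnip2, Kcnip3, Kcne1l and Kcne4 had log2 differences of -0.38, -0.07, -0.28 and -0.41, none of them called (limma adjusted p between 0.176 and 0.599). Exons of Kcnip4 and Kcnab3, and among the called genes of other classes those of Kcnj6, Kcnk1 and Kcnma1, overlap transcripts of the other strand.

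Among the inward rectifiers, the glial subunits Kcnj10 and Kcnj16 had opposite signs. Kcnj10 (chromosome 1, 172341210 to 172374085) had values of 253.9, 276.6, 224.9, 291.7 and 298.6 normalized CPM in sham animals and 346.3, 419.5, 410.4, 307.4 and 391.4 at 28 dpi. The groups did not overlap. Kcnj10 rose from 269 ± 30.1 to 375 ± 47.2, a log2 difference of 0.48 (standard error 0.136, limma adjusted p = 0.0132) that was not called without the sham animal A12-1, while it was at 364 ± 63.0 at 42 dpi (log2 difference 0.43, limma adjusted p = 0.138). With the same sum without ribosomal RNA genes the Kcnj10 difference was -0.01, which was 0.44 above the shifted median of all genes.

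Kcnj16, which combines with Kcnj10 in glia, had values of 37.2, 38.8, 42.2, 38.0 and 41.1 in sham animals and 35.4, 36.5, 35.6, 36.9 and 35.7 at 28 dpi. All 28 dpi animals were below all sham animals, but by little, and Kcnj16 was not called (log2 difference -0.13, limma adjusted p = 0.110). Of 6 astrocyte markers, 1 was higher (Aldh1l1) and 2 were lower (Slc1a2 and Aqp4) at 28 dpi, and their summed level lay between 2432 and 2975 in sham animals and between 2835 and 3300 at 28 dpi. Of 6 oligodendrocyte markers, 4 were lower (among them Mog, Cnp and Mobp), with sums between 6223 and 9261 in sham and between 4476 and 6587 at 28 dpi. Of all genes 11.9% were higher and 13.0% lower. The part of these cells in the values of Kcnj10 and Kcnj16 was not tested.

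Kcnj6, a subunit of G protein-gated channels, rose at 28 dpi. It had values of 8.7, 10.8, 6.4, 8.6 and 7.7 in sham animals and 9.9, 12.3, 9.9, 13.2 and 13.6 at 28 dpi, so that 3 of 5 animals were above the sham range. Its log2 difference was 0.46 (standard error 0.131, limma adjusted p = 0.0127), and the call was lost under 2 of 9 alternatives and without the sham animal A12-1. Its partners were not called, with Kcnj3 at 67.9 ± 2.13 in sham and 65.8 ± 7.36 at 28 dpi and Kcnj9 at 13.8 ± 0.760 and 12.6 ± 1.40. Kcnj2, a classical strong rectifier, was at 11.7 ± 0.922 and 10.4 ± 1.04, and Kcnj8, a subunit of ATP-sensitive channels of vessel-wall cells, at 2.3 ± 0.381 and 1.76 ± 0.727, both not called.

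Of the two-pore genes, Kcnk9 was higher and Kcnk1 was lower at 28 dpi. Kcnk9, an acid-sensitive leak subunit of neurons (chromosome 15, 72512119 to 72546279), had values of 20.7, 25.4, 21.1, 24.1 and 17.3 in sham animals and 22.4, 34.4, 26.8, 36.7 and 40.1 at 28 dpi. Animal A3-1 lay inside the sham range and the other 4 above it. Kcnk9 rose by a log2 difference of 0.53 (standard error 0.147, limma adjusted p = 0.0109). Kcnk1 (chromosome 8, 125995170 to 126030685) had values of 66.9, 77.7, 82.7, 68.4 and 66.8 in sham animals and 61.3, 47.5, 65.1, 61.2 and 56.9 at 28 dpi. The groups did not overlap, and Kcnk1 fell by 0.31 (standard error 0.0803, limma adjusted p = 0.00717). Kcnk3, the closest relative of Kcnk9, was at 16.9 ± 2.55 in sham and 17.4 ± 2.92 at 28 dpi, Kcnk2, a mechanosensitive leak subunit, at 7.40 ± 1.08 and 7.88 ± 0.610, and Kcnk13, known from microglia, at 11.1 ± 2.80 and 9.48 ± 0.756. None of these 3 was called.

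In the calcium-activated class the large-conductance channel changed in its pore and in 1 of 3 auxiliary subunits. Kcnma1, the pore subunit, had values of 61.7, 63.3, 45.5, 57.8 and 50.5 in sham animals and 59.1, 81.9, 64.0, 84.0 and 78.4 at 28 dpi. With 4 of 5 animals above the sham range, Kcnma1 rose by a log2 difference of 0.39 (standard error 0.101, limma adjusted p = 0.00719). Kcnmb1, the auxiliary subunit best known from smooth muscle (chromosome 11, 33963013 to 33973641), had values of 1.0, 1.6, 1.1, 1.2 and 1.8 in sham animals and 2.4, 4.0, 2.7, 2.3 and 2.1 at 28 dpi. The groups did not overlap, and its log2 difference of 0.79 (standard error 0.209, limma adjusted p = 0.00869) was the largest of the 74 genes at 28 dpi. With quantile normalization it was not the largest, at 0.63 against 0.64 for Kcnq1ot1. At 42 dpi Kcnmb1 was back between 0.9 and 1.5 in 4 of 5 animals, and 1 was at 2.9. Kcnmb1 lies inside Kcnip1 on the opposite strand with no overlap of their annotated exons, and the Kcnip1 level fell where that of Kcnmb1 rose.

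The neuronal auxiliary subunits Kcnmb2 and Kcnmb4 were not called, with log2 differences of -0.22 and -0.02. The small-conductance subunit Kcnn2 was at 25.8 ± 1.97 in sham and 26.7 ± 1.13 at 28 dpi, and Kcnn4 at 0.52 ± 0.335 and 0.56 ± 0.182. Kcnt1 was at 84.1 ± 2.59 and 94.7 ± 7.02 (log2 difference 0.17, limma adjusted p = 0.122). The pericyte marker sum lay between 104 and 121 in sham animals and between 97.4 and 121 at 28 dpi, and that of 4 endothelial markers between 63.3 and 95.5 and between 74.1 and 126. The part of vessel-wall cells in the level of Kcnmb1 was not tested.

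Kcnq1ot1, the antisense RNA of the Kcnq1 locus (chromosome 7, 143212155 to 143296549), is known for its role in imprinting of that region. Its values were 328.1, 307.1, 263.5, 303.7 and 304.9 in sham animals and 411.7, 612.8, 453.1, 473.6 and 419.1 at 28 dpi, without overlap. It rose by a log2 difference of 0.64 (standard error 0.130, limma adjusted p = 0.00186). Its annotated exon length was 93.1 kb, and with a correction for length and GC content the difference was 0.17 and the call was lost (limma adjusted p = 0.176, and between 0.000966 and 0.466 over the alternatives).

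**Figure D4:**
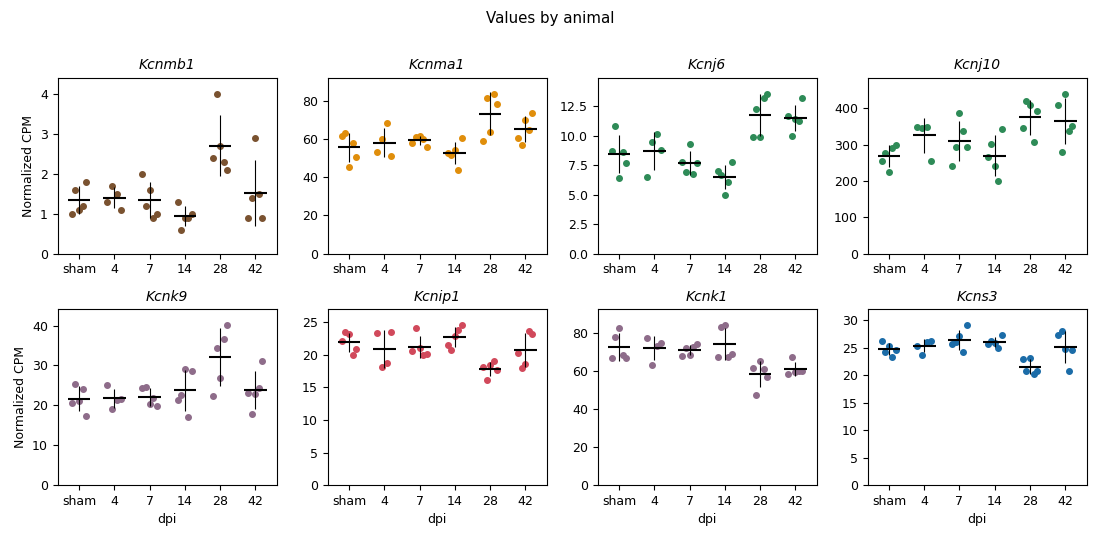
Normalized CPM of 8 potassium channel genes in each animal (points) of the sham group and the 5 groups after stroke, with the group mean (horizontal line) and SD (vertical line); colours mark the class. Kcnmb1 and Kcnj10 lie above and Kcnip1, Kcnk1 and Kcns3 below all sham animals at 28 dpi, while Kcnk9 and Kcnma1 have 1 animal each and Kcnj6 has 2 animals inside the sham range.

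Most changes at 28 dpi were small. An additional fold limit of 1.5 left 3 members (4.05%, against 4.64% of all genes), Kcnmb1, Kcnq1 and Kcnq1ot1, with folds of 1.73, 1.59 and 1.56 on the log2(value + 0.5) scale. This count was 1 without the 28 dpi animal A3-3, 6 without A3-1, and 5 without each of the sham animals A11-4 and A12-2. Groups did not overlap for 9 members (12.2%, against 9.90% of all genes), among them Kcns3, Kcnip1, Kcnj10, Kcnj16, Kcnk1, Kcnmb1 and Kcnq1ot1.

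Between 14 and 28 dpi, 32 of 74 members (43.2%) differed, against 43.0% of all genes, which again was close to the background. At 28 dpi 23 of them were higher (31.1%, against 21.0% of all genes) and 9 were lower (12.2%, against 21.9%). With the same sum without ribosomal RNA genes 9 differed, 4 higher and 5 lower (12.2%, against 18.3% of all genes). Past the fold limit there were 7 (9.46%, against 11.8% of all genes), among them Kcnmb1, Kcnj6, Kcnq1ot1, Kcng1, Kcnn3 and Kcnq1, all higher at 28 dpi. With the length and GC correction the difference of Kcnq1ot1 between 14 and 28 dpi was 0.04 (limma adjusted p = 0.738). Kcnn3, Kcne1l and Kcnj9 are named after their values were seen. Kcnmb1 was at 1.3, 0.6, 0.9, 0.9 and 1.0 in the 14 dpi animals, all below its 28 dpi values (log2 difference 1.14, limma adjusted p = 0.000118). Kcnj6 was at 7.0, 6.7, 5.0, 6.1 and 7.8 at 14 dpi, also without overlap (log2 difference 0.81, limma adjusted p = 4.43e-05).

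By class, 13 of 32 voltage-gated pore genes were higher and 1 was lower at 28 than at 14 dpi (43.8% called, against 43.0% of all genes), with a median difference of 0.20 against 0.02 over all genes. The auxiliary genes had 0 higher and 5 lower of 9 (against 21.0% of all genes higher and 21.9% lower), with a median of -0.33. The 5 were the beta, KChIP and Kcne genes Kcne1l, Kcnip4, Kcnab3, Kcnip1 and Kcnab1, with differences of -0.55, -0.45, -0.39, -0.33 and -0.26. Kcna1, Kcna2 and Kcnq3 differed from 14 dpi by 0.46, 0.37 and 0.57, each more than from sham. At 14 dpi itself the median of the pore genes lay at -0.12 and 7 of 32 were above 0, but none of them was called against sham. Between 42 and 28 dpi, 1 member differed (1.35%, against 1.94% of all genes). The count was 0 in 19 of 29 fits that left out 1 animal, 6 without the 28 dpi animal A3-1 and 2 without the 42 dpi animal A1-3.

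At 42 dpi some members called at 28 dpi lay between their sham and 28 dpi means and others stayed near the latter. The 42 dpi mean was 20.7 ± 2.62 for Kcnip1 and 23.9 ± 4.73 for Kcnk9. Kcnj6 at 11.5 ± 1.14, Kcnk1 at 61.1 ± 3.66 and Kcna2 at 808 ± 29.4 stood near their 28 dpi means of 11.8, 58.4 and 807. None of these genes was called against sham at 42 dpi. The smallest adjusted p among the members was that of Kcnn1 (log2 difference -0.31, limma adjusted p = 0.107).

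The median exon length was higher among members that rose than among those that fell, with overlapping ranges. The 13 subunit genes higher at 28 dpi had a median exon length of 7.63 kb (4.09 to 17.0 kb) and the 5 lower ones 3.16 kb (2.23 to 6.20 kb), while the 55 not called had 4.59 kb. Over all genes the medians were 5.84 kb for the higher, 3.20 kb for the lower and 4.18 kb for the other genes. Spearman's rho between exon length and the log2 difference at 28 dpi was 0.370 over 73 subunit genes and 0.237 over 16919 genes, given as a description across genes, which are not independent and share their libraries. Over the subunit genes it was 0.302, 0.251, -0.244 and 0.523 at 4, 7, 14 and 42 dpi, where no member was called, and over all genes -0.099, -0.155, -0.270 and 0.149. After a correction of each animal for length and GC content, rho over the subunit genes was 0.156 at 28 dpi and 0.362 at 42 dpi. At 4, 7 and 14 dpi it was 0.374, 0.343 and 0.010, so that it did not fall at every time. With this correction 15 members were called at 28 dpi (20.3%, against 24.5% of all genes), 14 of them among the original 19. The part of transcript length in these differences was not tested beyond this correction.

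**Figure D5:**
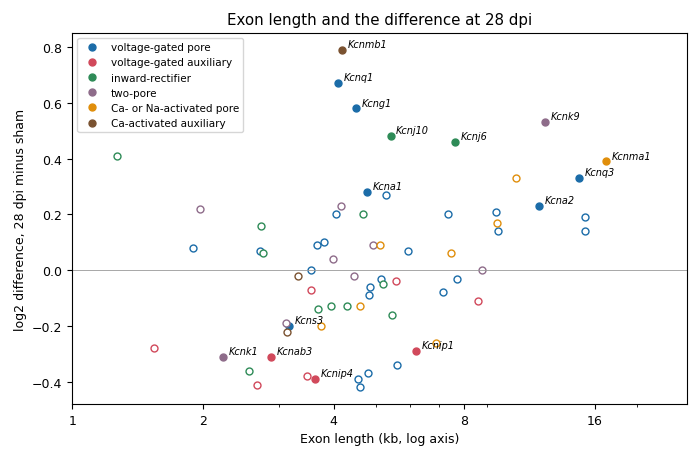
Exon length (kb, log axis) and log2 difference at 28 dpi from sham of 69 of the 73 subunit genes, coloured by class, with filled and named points for limma adjusted p under 0.05. The filled points above 0 lie between 4.09 and 17.0 kb and the 5 below 0 between 2.23 and 6.20 kb.

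Proteins that anchor or regulate potassium channels were examined from a list of 25 genes, of which 23 were in the table. At 28 dpi 4 were higher (Cntn2, Cntnap1, Ank3 and Dag1), 1 was lower (Aqp4), 21.7% against 24.9% of all genes, so that the share is not a result about these genes, and the median log2 difference was 0.13. Ank3, the ankyrin that holds channels at the axon initial segment, rose from 557 to 799 normalized CPM (log2 difference 0.53, limma adjusted p = 0.00321). Cntn2 and Cntnap1, cell adhesion molecules that flank the node, rose by log2 differences of 0.22 and 0.25 (limma adjusted p = 0.0462 and 0.0328), and Cntnap2, which clusters Kcna channels, had 0.12 (limma adjusted p = 0.285). Dpp6 and Dpp10, partners of Kcnd channels, had differences of -0.01 and -0.02. Against 14 dpi, 14 of the 23 were higher and 1 was lower (65.2% called, against 43.0% of all genes).

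The other marker lists hold 2 to 6 genes each, too few to set their counts at 28 dpi apart from the 24.9% of all genes called. Of 6 neuronal markers 1 was lower (Snap25), with sums between 3844 and 5726 in sham and between 3789 and 4342 at 28 dpi. Of 6 microglial markers 1 was higher (Cx3cr1), of 4 endothelial markers 1 was higher (Flt1), and 0 changed of 4 motor neuron, 3 oligodendrocyte precursor, 3 pericyte, 2 ependymal and 3 pituitary markers. The pituitary sum lay between 0.2 and 0.7 in sham animals and between 0.2 and 14.4 at 28 dpi, with a median log2 difference of 1.00 over its genes. The 2 Schwann cell markers of the lists, Prx among them, were not in the table, and no marker was at 0 in every animal. The part of cell composition in the differences of the potassium channel genes was not tested.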

How the data were processed

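RNA-seq values of 29 of the 30 labelled animals were used, since 1 animal labelled 4 dpi (A9-3) had no column. The deposited scores are normalized CPM made by the authors: reads (single end, ribosomal RNA depleted) were quantified on the mm10 transcriptome with SALMON and Tximport and normalized with edgeR (the labels list edgeR 3.14.0 and R 3.4.1), and genes of low expression were removed. The authors' own fold changes, p-values and calls in the table were not used. Depth is unknown.

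Log2(value + 0.5) was fitted with limma 3.58.1 (R 4.3.3, mean-variance trend, 6 group means), with Benjamini-Hochberg adjustment over 16995 genes. Members, classes and lists were chosen with earlier results of these data known. The genes named are up to 8 with the largest called rise and fall, the 2 highest per kb in each class and well known members; others are named as single examples. Exon lengths, overlaps and sequences were from GENCODE M21 (16919 genes with length and GC content). The filter pattern was widened by leucine after a first search. Positions were those of the authors' deposited table. Each animal is 1 sample. Alternatives were quantile normalization, equal sums without ribosomal RNA genes, a pseudocount of 1, a mean value of 1 or more, only the groups compared, the unit as a random block, ribosomal RNA as a covariate, a length and GC correction, leaving out each animal and, added after the values were seen, leaving out the 2 animals highest in ribosomal RNA. The fit was tested on simulated data. Cell type markers were 11 lists. No 2 animals had identical values. Python was 3.11.15. Some genes are not reported here, although counts and medians include them.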

Additional observations from a re-analysis of the deposited data

Results flagged for a closer look

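The highest or lowest animal was apart from the rest, by Dixon's ratio of its gap to the range of its group at the 95% critical value, in 12 of 222 groups checked over the 37 named genes, where such a limit by design marks about 1 in 20 groups. At 4 dpi, animal A10-1 was apart in Kcnk3 (21.4 normalized CPM), Kcnt1 (78.4) and Kcnmb4 (4.5), and its summed motor neuron markers were 245.3. The part of motor neuron content in these values was not tested. The 4 dpi animal A9-4 was apart in Kcnj10 (255.0). Among sham animals A12-1 was apart in Kcnmb4 (5.2), A12-2 in Kcnk2 (5.5) and A11-1 in Kcnn4 (1.1). At 7 dpi A8-3 was apart in Kcna3 (4.3) and A7-3 in Kcnip1 (24.0), and at 42 dpi A1-4 in Kcna2 (757.0), A1-2 in Kcnk1 (67.5) and A3-4 in Kcnn4 (1.8).

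The genes given here were picked for the largest called rises and falls against sham at 28 dpi. Each of them also differed between 28 and 14 dpi by limma, as 43.0% of all genes did. This comparison holds the same 28 dpi animals, so it is no separate support. The log2 difference was 1.14 for Kcnmb1, 0.81 for Kcnj6, 0.75 for Kcnq1ot1 (0.04 with the length and GC correction), 0.67 for Kcng1, 0.61 for Kcnq1, 0.49 for Kcnj10 and 0.42 for Kcnk9. It was -0.45 for Kcnip4, -0.39 for Kcnab3, -0.34 for Kcnk1, -0.33 for Kcnip1 and -0.27 for Kcns3. The call of Kcnk9 was lost under 4 of 9 alternatives and in 4 of 29 fits without 1 animal (down to 0.20, limma adjusted p = 0.338), and that of Kcnq1 under 3 of 9 and in 2 of 29.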

How the results depend on the processing

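With the same sum without ribosomal RNA genes, members higher at 28 dpi numbered 0 and lower 36 (48.6%, against 52% of all genes called). Past the fold limit there were 22, and 9 differed between 14 and 28 dpi (12.2%, against 18.3% of all genes). Between 28 and 42 dpi 0 differed, and 39 did among the 6 groups. Kcnj10 turned below 0 at 28 dpi (-0.01, limma adjusted p = 0.983). Other genes that had risen did too, among them Kcna2 (-0.26), Kcna1 (-0.20), Kcnq3 (-0.14) and Kcnma1 (-0.09). The median of all genes was at -0.44 there, and relative to it these genes stood at 0.44, 0.19, 0.24, 0.30 and 0.36 in this order. With ribosomal RNA as a covariate the higher, lower and past-limit members numbered 0, 0 and 0, with 0 of all genes called at 28 dpi. Those between 28 and 42 dpi numbered 0 and those among the 6 groups 15. With only the groups compared, 13 members were called at 28 dpi (17.6%, against 13% of all genes), 3 of them lower. Between 28 and 42 dpi 0 differed. Without the 2 animals highest in ribosomal RNA (14 dpi A6-3 and 28 dpi A3-3, chosen after seeing the data), 8 were higher and 2 lower at 28 dpi. These were 13.5% of the members, against 13.3% of all genes called, with 1 member past the limit and 0 between 28 and 42 dpi. The length and GC correction left 0 between 28 and 42 dpi and the unit as a random block 2. Leaving out single animals gave 7 to 17 higher and 2 to 6 lower at 28 dpi (13.5% to 31.1% called, against 12.9% to 29.6% of all genes). It gave 1 to 6 past the limit and 26 to 32 between 14 and 28 dpi (35.1% to 43.2%, against 35.7% to 44.4% of all genes). Between 28 and 42 dpi there were 0 to 6, and among the 6 groups 17 to 28. Counts given here without a share of all genes are not a result about the members. At 4, 7, 14 and 42 dpi 0 were called under every alternative. The cause of these changes was not tested. No paired analysis was possible because the animal labels of the groups compared do not repeat. Depth is unknown, and values under 1 are close to the rounding step.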
